A study of Arabidopsis thaliana with 6 samples.

Results

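Glutathione reductase is encoded by 2 genes in Arabidopsis thaliana, and both were measured here. GR1 (AT3G24170) encodes the enzyme of the cytosol and peroxisomes, and GR (AT3G54660, also called GR2 or EMB2360) that of plastids and mitochondria. The members are the genes with a probe set, the group of short probes that reports 1 transcript, annotated with exactly 1 of these genes. Each had 1 such probe set, so 2 genes were taken out of 13286 named in this way, and both passed the filter on low signals.

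Glutathione is the small thiol that buffers the redox state of the cell, and glutathione reductase uses NADPH to return its oxidised disulfide to the reduced form. Reduced glutathione feeds the ascorbate-glutathione cycle, which removes hydrogen peroxide. It is also the building block of phytochelatins, the peptides that bind cadmium in plant cells and are carried with it into the vacuole. Cadmium therefore draws on glutathione both as a ligand and through oxidative stress. Loss of GR1 is tolerated by the plant, whereas loss of the plastid and mitochondrial enzyme stops the embryo.

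The material was root RNA from 4-week-old plants of the Col-0 accession, with no transgene or mutation named in any group. Plants stood in sterile nutrient solution under 16 h of light and 8 h of dark, and the groups were 3 samples without cadmium (control) and 3 with 200 µM cadmium for 6 h. The labels call the replicates biological without saying whether they came from separate cultures, so p-values measure the spread between these samples. Signals are linear MAS5 values from Affymetrix ATH1 arrays, 1 array for each sample, and their number, 3 a group, limits the precision.

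The arrays of replicate 2 stood apart from the others before any gene was compared. Their 2% trimmed mean signal was 216 (control) and 227 (cadmium), against 500 on each array of replicates 1 and 3, so their raw signals are not on the scale of the rest. The log2 ratio of 3' to 5' signal in 1 GAPDH control was 2.02 and 1.67 on them and -0.60 to -0.19 elsewhere. Ubiquitin control ratios were instead higher on the cadmium array of every pair, 1 of them at 0.28 and 0.59, -0.02 and 0.37, and 0.08 and 0.38 in replicates 1, 2 and 3. An actin control ratio was lower on the cadmium array in replicate 1 (2.99 and 2.73) and replicate 3 (2.62 and 2.41) and higher in replicate 2 (3.46 and 3.72). Another actin ratio was 2.05 and 3.22 in replicate 2 and 0.07 to 0.34 elsewhere. The part of these ratios in the results was not tested. Each result is therefore given for replicates 1 and 3, for replicate 2, and for all 6 arrays. Named probe sets existed for 3 of 14 root markers (EXPA7, EXPA18 and XTH26) and not for others such as CASP1, SCR and SHR. The sum of the 3 therefore does not stand for the whole root. It was 369 to 843 on control and 390 to 1919 on cadmium arrays. Such probe sets existed for 3 of 12 markers of shoot photosynthesis (PRK, RCA and SBPASE), which summed to 315 to 1924 and 377 to 2310. On the deposited scale both sums were higher on the cadmium array in each of the 3 pairs. Single markers went the other way, with EXPA7 at 164 and 127 in replicate 2 and SBPASE at 192 and 167 in replicate 3 (control and cadmium). Relative to the median difference of all probe sets past the filter, RCA and SBPASE were lower in replicates 1 and 3, and PRK in replicate 3 only. None of these 6 markers was at 0, and the lowest was the root hair gene XTH26 at 3.63 on control array 1. Whether green tissue contributed to the plastid gene's signal was not tested. In whole roots, fewer cells of a type and less RNA per cell cannot be told apart.

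The transcript of the cytosolic and peroxisomal enzyme differed between the labels in opposite directions in different replicates. In replicate 1 the GR1 signal was 3757 without cadmium and 1511 with it, and in replicate 3 it was 1603 and 853. The replicate 2 signals of GR1 were 477 without cadmium and 1859 with it. The array labelled cadmium was thus the lower of the pair in replicates 1 and 3 and the higher in replicate 2. Replicate 2 was opposed to the other pairs in many probe sets (on the deposited scale 18.8% had the signs of GR1 and 40.9% the reverse). After subtracting the median difference of all tested probe sets in each pair, these shares were 27.8% and 27.4%. The labels do not settle whether those of any pair were exchanged, so every direction given here is by label. A pair here is the 2 arrays with the same replicate number, and the labels do not state that they were matched. The deviations of same-numbered arrays from their group means correlated with 0.11, -0.04 and 0.29 in replicates 1, 2 and 3. Control and cadmium arrays with unlike numbers correlated with -0.36 to 0.16. These values do not settle whether the arrays were matched, so pair differences are given as descriptions and not as matched responses. The GR1 differences, cadmium minus control on the log2 scale, were -1.31 in replicate 1, 1.96 in replicate 2 and -0.91 in replicate 3. These correspond to 2.49-fold lower, 3.90-fold higher and 1.88-fold lower signals on the cadmium arrays.

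The signals of GR, the plastid and mitochondrial enzyme, were close within each pair. Without and with cadmium, the GR signal was 887 and 994 in replicate 1, 203 and 187 in replicate 2, and 787 and 876 in replicate 3. Its differences were 0.16, -0.12 and 0.15 on the log2 scale, at most 1.12-fold. The median difference over all 15909 tested probe sets was 0.29, -0.11 and 0.16 in the same pairs. Relative to those medians GR stood at -0.12, -0.014 and -0.0033, so the sign of its difference in replicates 1 and 3 depended on the scaling. GR1 stood at -1.60, 2.07 and -1.07 relative to them, with its signs kept.

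**Figure D1:**
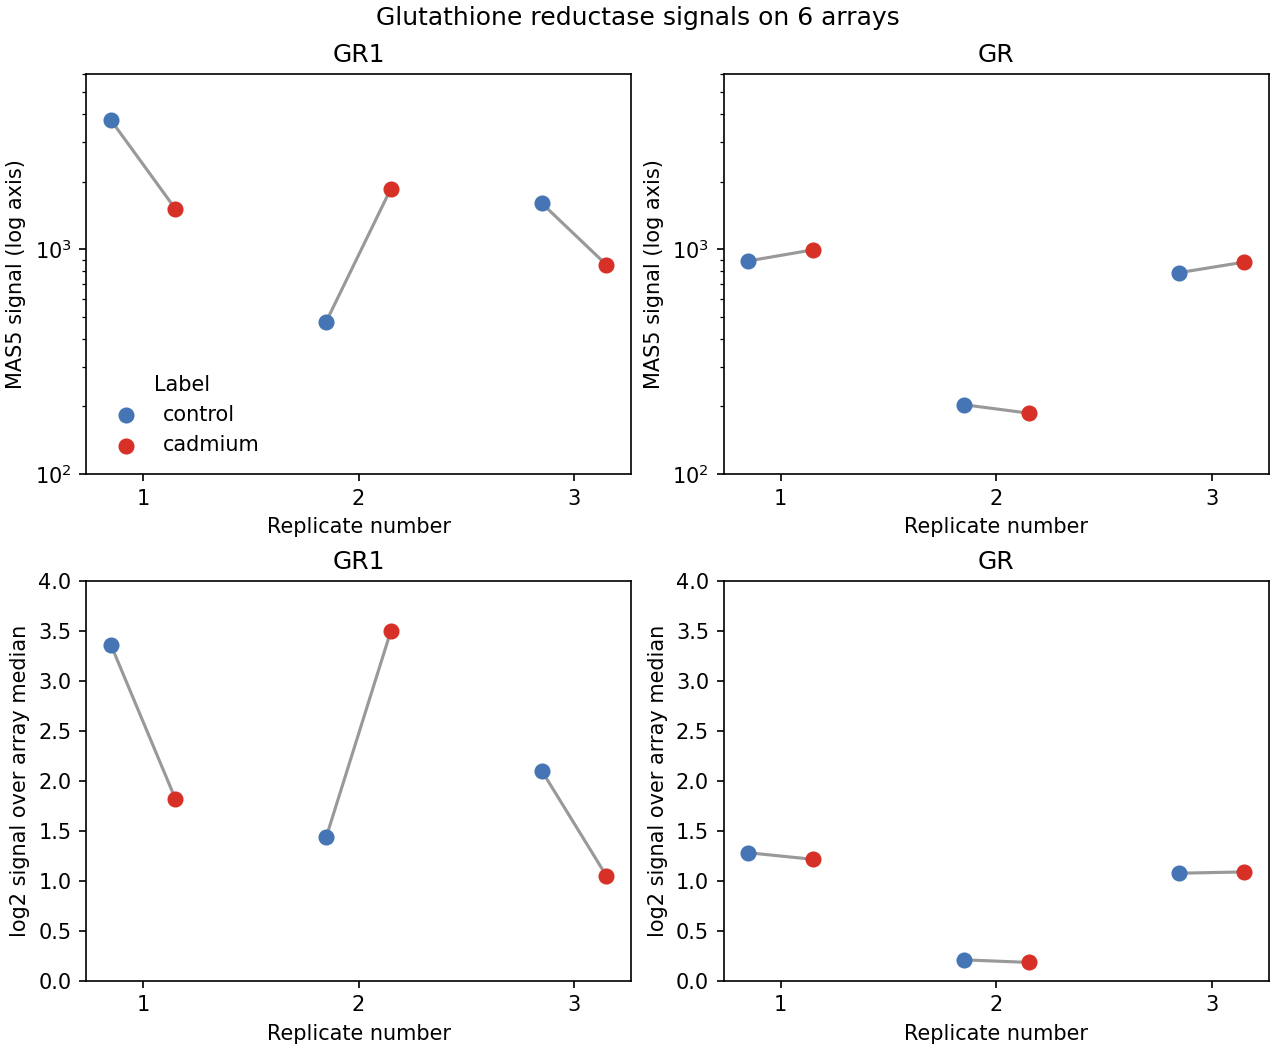
Signals of GR1 and GR on each array, as deposited (upper panels, MAS5 units on a log axis) and as log2 signal over the median of the tested probe sets of the array (lower panels). Each point is 1 array, blue for control and red for cadmium, and a line joins arrays with the same replicate number. GR1 goes from 3757 to 1511 in replicate 1 and from 477 to 1859 in replicate 2, whereas the 2 points of each GR pair lie nearly level.

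Dividing each array by its own median removes a constant scaling factor, though not other differences between arrays. The 6 arrays can then be ordered on 1 scale. On that scale GR1 was at 3.50 (log2 over the array median) on cadmium array 2 and 3.36 on control array 1, which were the highest. Control array 3 at 2.103, cadmium array 1 at 1.82, control array 2 at 1.44 and cadmium array 3 at 1.05 followed. The groups overlapped, with controls at 2.30 ± 0.98 and cadmium arrays at 2.12 ± 1.25 (SD, n = 3 each; exact permutation p = 0.8, two-sided, smallest possible 0.1). In rank terms GR1 lay between percentile 81.5 of the probe sets on cadmium array 3 and percentile 97.4 on cadmium array 2.

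GR ordered the arrays by replicate number and not by label. Control and cadmium stood at 1.28 and 1.22 in replicate 1, at 1.08 and 1.09 in replicate 3, and at 0.21 and 0.18 in replicate 2. The group means were 0.86 ± 0.57 and 0.83 ± 0.56 (SD, n = 3 each; exact permutation p = 0.8, two-sided). Its rank fell between percentile 68.2 on cadmium array 2 and percentile 84.3 on cadmium array 1. The arrays on which GR was low are the 2 with other scaling and high GAPDH 3' to 5' ratios, and the part of RNA quality in this was not tested.

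The study set cadmium against control to find transcripts that respond in the root within 6 h. Neither gene passed the threshold of an adjusted p under 0.05 in limma over all 6 arrays. For GR1 the fitted log2 difference was -0.09 ± 0.83 (SE, n = 3 each; 95% interval -1.84 to 1.67; adjusted p = 1). For GR it was 0.06 ± 0.84 (95% interval -1.72 to 1.85; adjusted p = 1). The background was 0 of 15909 probe sets (0%) past the threshold and 84 at an unadjusted p under 0.05. Control and cadmium signals overlapped for both genes, and over all tested probe sets the 2 groups of 3 arrays were separate for 0.371% with cadmium lower and 0.71% with cadmium higher. The median SE over all tested probe sets was 0.75 in this fit and 0.28 in that of replicates 1 and 3. Both intervals reach beyond a log2 difference of 1 in each direction. This fit used the signals as deposited, so the other scaling of the replicate 2 arrays is part of the spread behind its SEs and intervals. For GR the SDs were 1.18 (control) and 1.34 (cadmium) as deposited, and 0.57 and 0.56 over the array medians. For GR1 the control SD was lower over the array medians and the cadmium SD was higher.

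Within replicates 1 and 3, the arrays scaled alike, GR1 was 2.16-fold lower by label without passing the threshold. Its log2 difference was -1.11 ± 0.49 (SE, n = 2 each; 95% interval -2.35 to 0.13; limma, adjusted p = 0.240). The 2 cadmium signals lay below the 2 control signals, with 1511 and 1603 the nearest. Groups separated in that direction for 16.9% of tested probe sets, and separated with cadmium higher for 40.8%. GR1 lay at percentile 6.92 of all fitted differences, whose median was 0.22.

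GR in the same fit had a log2 difference of 0.16 ± 0.21 (SE, n = 2 each; 95% interval -0.37 to 0.69; limma, adjusted p = 0.671). Its groups overlapped, with the cadmium signal of 876 below the control signal of 887. So 0 of the 2 genes passed within replicates 1 and 3, where 721 of 15909 probe sets did (4.53%; 1.29% higher and 3.24% lower on cadmium arrays). The interval of GR leaves room for differences from 0.37 lower to 0.69 higher on the log2 scale, so it does not show that the transcript was the same under both labels.

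**Figure D2:**
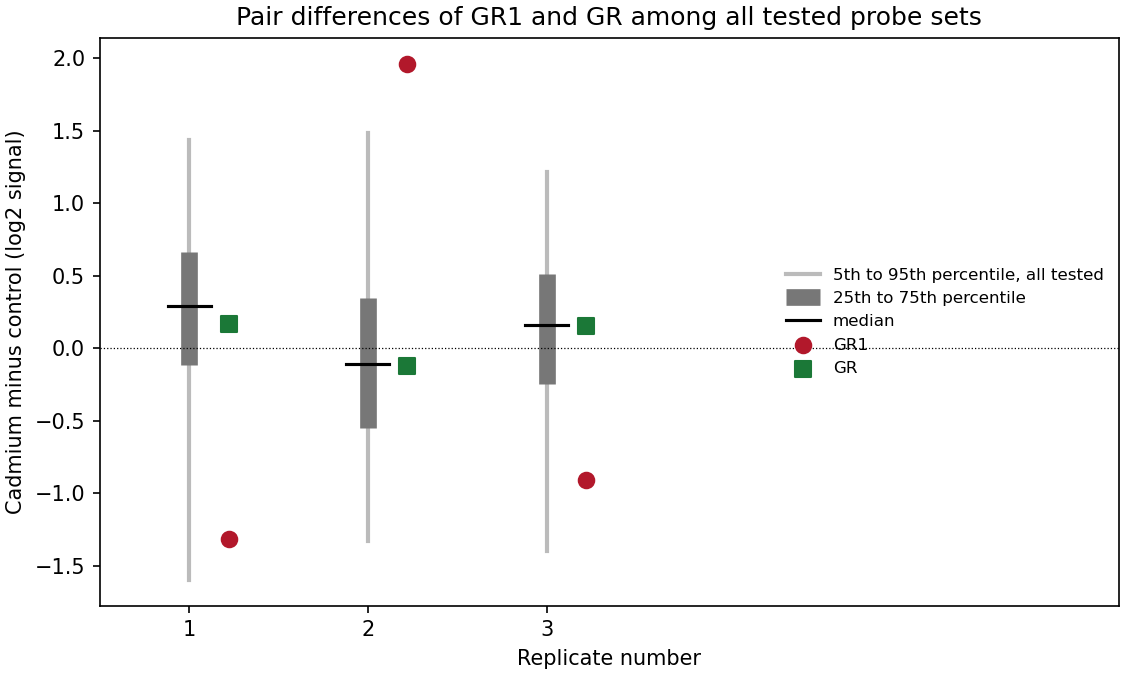
Differences between the cadmium and the control array (log2 signal) in each replicate pair for GR1 (red circles) and GR (green squares). Beside them stand the spread of all 15909 tested probe sets (thin bars, 5th to 95th percentile; thick bars, 25th to 75th) and their median (black line). GR lies near the median in each pair, while GR1 lies at -1.31 and -0.91 in replicates 1 and 3 and at 1.96 in replicate 2.

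The position of each gene among all probe sets can be read pair by pair. GR1 was at percentile 6.27 of all differences in replicate 1, at 97.0 in replicate 2 and at 9.06 in replicate 3. GR was at percentiles 41.1, 49.1 and 49.8. Relative to the pair medians, 754 of 15909 probe sets (4.74%) were lower in replicates 1 and 3 and higher in replicate 2, each by at least 1.07, the narrowest of the 3 GR1 differences. Without that minimum, 27.8% of tested probe sets had those signs, so the signs of GR1 were common and their size less so. For GR, 188 probe sets (1.18%) stayed as near to the medians in each of the 3 pairs, within 0.12. These counts describe the genes by the values that define them and carry no test.

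The ratio of the 2 transcripts on 1 array does not depend on how that array was scaled. From control to cadmium the log2 ratio of GR1 to GR changed by -1.48 in replicate 1, by 2.09 in replicate 2 and by -1.06 in replicate 3. The ratio was thus 2.79-fold and 2.09-fold lower on the cadmium arrays of replicates 1 and 3 and 4.25-fold higher on that of replicate 2. Over the 6 arrays its change was -0.15 (exact permutation p = 0.9, two-sided, smallest possible 0.1), with SDs of 0.56 among controls and 1.78 among cadmium arrays. Within replicates 1 and 3 it was -1.27, and 2 against 2 arrays cannot give an exact p below 0.333, the value found. Over the replicates this change was smaller than its spread.

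Genes linked to glutathione were followed from lists of 96 genes other than the reductases. Named probe sets existed for 22 of them and 21 passed the filter, so the lists are thinly covered by the annotation used here. That annotation gave no gene for 8730 of 22746 probe sets, and whether these report other listed genes was not examined. In limma 0 of the 21 passed the threshold in either direction, over all 6 arrays (background 0%) or within replicates 1 and 3 (background 4.53%), and 0 and 4 had an unadjusted p under 0.05. Of all tested probe sets, 84 and 3880 (24.4%) did in the same fits, so the 4 are no more than the background. Their median difference within replicates 1 and 3 was 0.18, beside 0.22 for all tested probe sets. Below, a relative difference is the log2 difference of a pair minus the median of all tested probe sets in that pair.

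In the ascorbate-glutathione cycle, which consumes the product of both enzymes, 0 of 3 tested genes of 16 listed passed. MDAR2, a monodehydroascorbate reductase that recycles ascorbate in the cytosol, had signals, without and with cadmium, of 6027 and 3445 in replicate 1, 1106 and 2817 in replicate 2, and 5504 and 4501 in replicate 3. Its relative differences were -1.10, 1.46 and -0.45, with the signs of GR1 in each pair, and within replicates 1 and 3 its log2 difference was -0.55 ± 0.20 (SE; limma, adjusted p = 0.185). The ascorbate peroxidases of the chloroplast lay closer to the medians. SAPX, the stromal form, was at -0.04, 0.47 and -0.01, and TAPX, the thylakoid form, at -0.15, 0.14 and 0.18 in replicates 1, 2 and 3.

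Glutaredoxins, small oxidoreductases that take electrons from reduced glutathione, had 6 tested genes of 13 listed and 0 past the threshold. GRXC2, a cytosolic form, had signals of 3455 and 2732 in replicate 1, 1077 and 1693 in replicate 2, and 3721 and 3096 in replicate 3 (control and cadmium). Its relative differences were -0.63, 0.76 and -0.42, again with the signs of GR1. GRX480, a glutaredoxin that binds TGA transcription factors in salicylic acid signalling, was instead lower in every pair by this measure, at -2.81, -0.13 and -0.94 (adjusted p = 0.266 within replicates 1 and 3, limma). GRXC1 was at -0.78, 0.14 and 0.06. Of the loci without a name in the annotation used here, AT1G77370 was at -0.80, 0.55 and 0.14, and AT5G20500 within 0.34 of the medians in each pair.

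ROXY1 and ROXY2, glutaredoxins known from flower development, were dim on most or all arrays. ROXY1 had signals between 11.6 and 113 and did not pass the filter. ROXY2 had signals of 17.8 and 121 in replicate 1, 234 and 73.5 in replicate 2, and 19.3 and 30.8 in replicate 3 (control and cadmium), above the median of the tested probe sets on control array 2 (176). Its relative differences were 2.48, -1.56 and 0.52 (adjusted p = 0.371 within replicates 1 and 3, limma).

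Thioredoxins and their reductases form the parallel thiol system, with 2 tested genes of 9 listed. NTRC, the NADPH-dependent thioredoxin reductase of plastids, had relative differences of -1.18, 0.40 and -0.43, from signals of 600 and 323, 213 and 260, and 331 and 274. AT2G04700 was within 0.24 of the medians in each pair, with signals of 830 and 876, 204 and 169, and 680 and 896 on control and cadmium arrays. Neither passed (adjusted p = 0.347 and 0.535 within replicates 1 and 3, limma). NTRC of plastids and SAPX of the chloroplast had the signs of GR1 by relative difference, as did 27.8% of all tested probe sets. Whether these signs go with compartment was not tested.

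Glutathione reductase draws on NADPH, and the list of NADPH supply had 5 tested genes of 15 listed and 0 past the threshold. AT3G02360 had signals of 6122 and 4774 in replicate 1, 1903 and 3281 in replicate 2, and 5811 and 5178 in replicate 3, with relative differences of -0.65, 0.90 and -0.32. The 2 other unnamed loci of this list lay on the other side in replicates 1 and 3. AT1G64190 was at 0.58, -0.44 and 0.27, and AT5G41670 at 0.65, 0.03 and 0.70. Within replicates 1 and 3 their log2 differences were 0.65 ± 0.19 (SE; limma, adjusted p = 0.130) and 0.90 ± 0.30 (SE; limma, adjusted p = 0.154). The cytosolic isocitrate dehydrogenase cICDH was at -0.34, 0.14 and -0.30, and ALDH11A3, a glyceraldehyde 3-phosphate dehydrogenase that makes NADPH, at -0.17, 0.58 and -0.22.

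The remaining linked genes also had 0 members past the threshold. CCS, the copper chaperone of superoxide dismutase, was the only tested gene of 11 in its list and stood at -0.09, 0.72 and -0.0040. AT4G16155, listed among dihydrolipoamide dehydrogenases, which share the fold of glutathione reductase, was at 0.63, 0.06 and 0.61. Its log2 difference within replicates 1 and 3 was 0.84 ± 0.22 (SE; limma, adjusted p = 0.105), the lowest adjusted p of the 21 linked genes. GLX2-2, a glyoxalase that releases glutathione from its lactoyl conjugate, was at 0.14, -0.47 and 0.24. AT1G67280 was at 0.15, -0.81 and -0.17, and AT1G08110 at -0.44, -0.19 and -0.02. The lists of glutathione and phytochelatin synthesis, glutathione peroxidases, and glutathione breakdown and transport had 0 genes with a named probe set and were not analysed here.

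**Figure D3:**
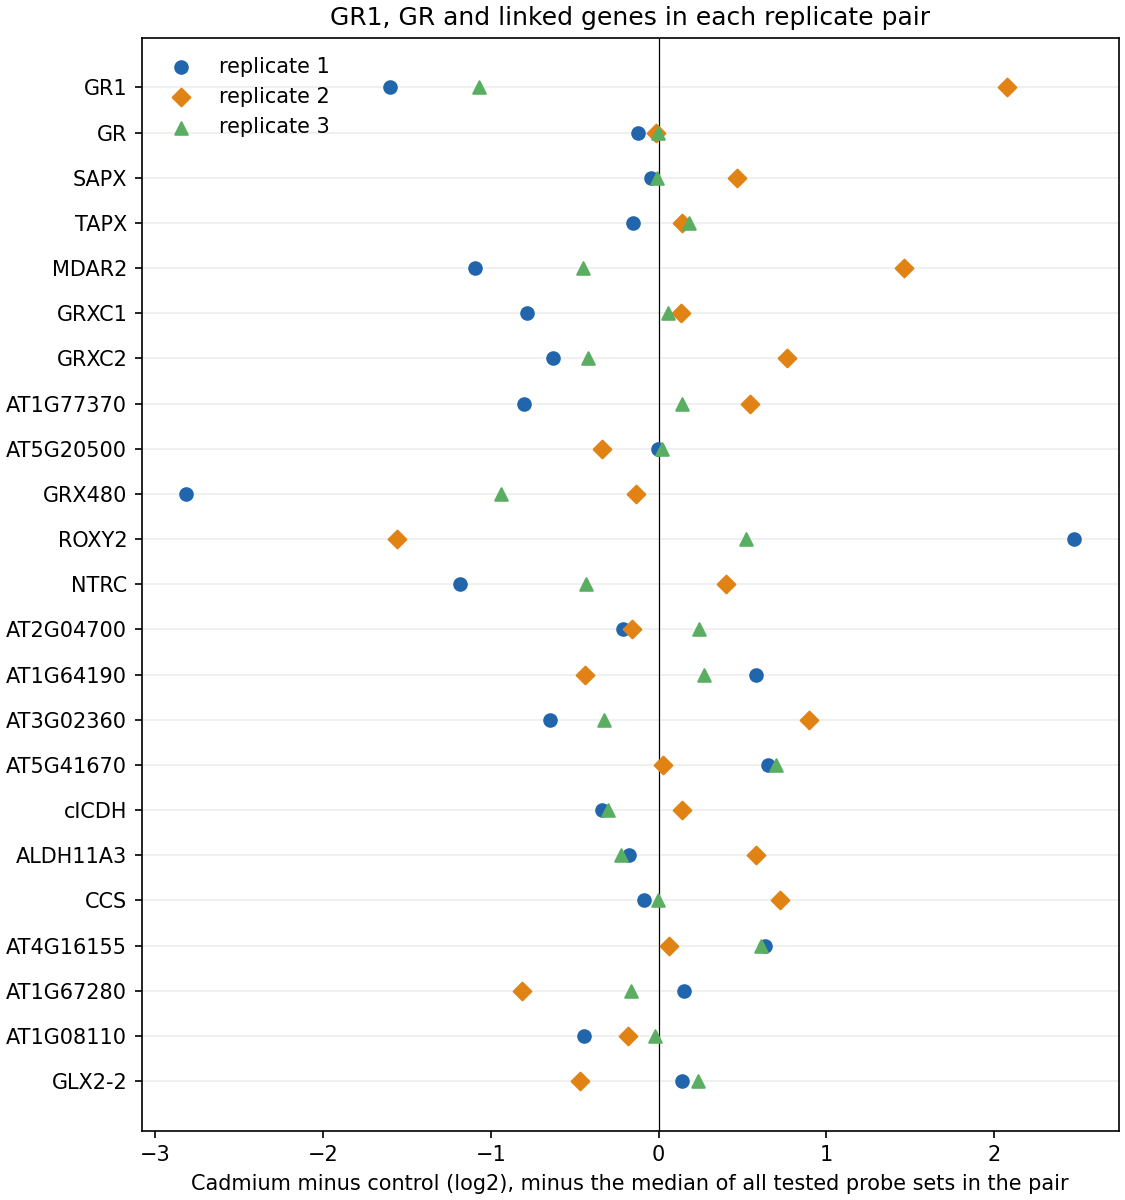
Relative differences (cadmium minus control, log2, minus the median of all tested probe sets in the pair) of GR1, GR and the 21 tested linked genes, with 1 symbol for each replicate pair. GR1 has the points -1.60, 2.07 and -1.07 and MDAR2 the points -1.10, 1.46 and -0.45, while the 3 points of GR lie between -0.12 and -0.0033.

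Of the 21 linked genes, 8 had the signs of GR1 by relative difference (lower in replicates 1 and 3, higher in replicate 2), and 27.8% of all tested probe sets did. The opposite signs were found in 3 of the 21 and in 27.4% of all. With the deposited scaling the counts were 5 and 7, against 18.8% and 40.9% of all tested probe sets. None of the 21 had the signs of GR1 with differences as wide in each pair, and 4.74% of all tested probe sets did. None stayed as near to the medians as GR, and 1.18% of all did. These shares are small, so 0 of 21 does not set the reductases apart from the linked genes.

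The genes whose levels ran most closely with each reductase were taken from 8589 other named genes past the filter, by Pearson correlation of the log2 signals over the array medians. The same 6 arrays, with those of replicate 2 scaled apart from the rest, stand behind every value, so the values are descriptions. GR1 was closest to AT2G07777 (r = 0.99), BOB1 (r = 0.99), AT4G33660 (r = 0.99), AT1G10650 (r = 0.98) and AT2G20560 (r = 0.98). BOB1 encodes BOBBER1, a chaperone needed for heat tolerance and development, and its log2 differences were -1.10, 1.61 and -0.63 in replicates 1, 2 and 3, close to those of GR1. AT2G20560 ran wider, at -4.29, 3.84 and -2.55. In all, 44 genes reached r above 0.95 with GR1.

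GR was closest to AT5G67220 (r = 0.998), SPP (r = 0.996), AT5G49540 (r = 0.996), AT2G38840 (r = 0.996) and AT1G68185 (r = 0.995). SPP, a signal peptide peptidase of the endoplasmic reticulum, had log2 differences of 0.09, -0.06 and 0.14. In these 5 genes, as in GR, both arrays of replicate 2 were below the other 4, and the correlation rests on that split. For GR, 210 genes reached r above 0.95. Between GR1 and GR themselves r was -0.12 over the 6 arrays.

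**Figure D4:**
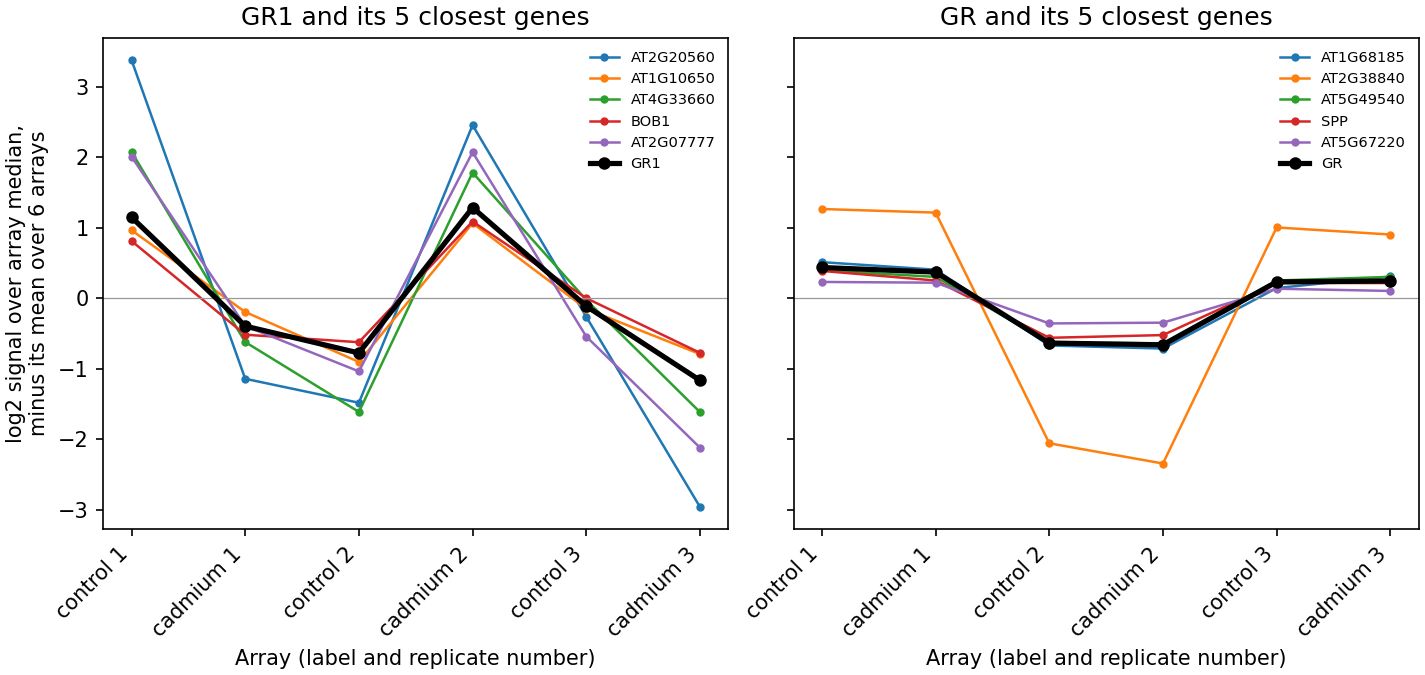
Log2 signal over the array median, minus its mean over the 6 arrays, for GR1 (left, black) and GR (right, black) with the 5 genes closest to each by correlation (colours). Arrays are named by label and replicate number. The GR1 group peaks on control array 1 and cadmium array 2, and the GR group drops on both arrays of replicate 2.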

How the data were processed

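The deposited values are linear intensity signals for 22810 probe sets on 6 arrays, made by the authors with MAS5 per the submitters' processing notes (version not given in the sources used here). The sample titles gave each array's group and replicate number. Signals were put on the log2 scale as deposited, with 7 zeros on control array 2 set to its lowest positive signal. After leaving out 64 control probe sets and those with a mean signal under the 30th percentile (73.0), 15909 were tested with limma 3.58.1 in R 4.3.3 (lmFit, eBayes with intensity trend, two-sided, Benjamini-Hochberg adjustment over all of them, threshold 0.05). The fit was run on all 6 arrays and on the 4 of replicates 1 and 3, and tested on simulated data. Single values were compared by exact permutation.

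Of 22746 probe sets, 13513 had 1 gene in the platform annotation, 503 several and 8730 none. Gene identifiers were matched to the TAIR10.1 RefSeq table for 13436. Genes named are GR1, GR, the linked genes with a probe set and the 5 closest to each reductase. Members, lists and tests were chosen with earlier results of these data known. Promoter and protein sequences were not used here.

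Alternatives were quantile normalization, median centring, other filters, a signal floor, no trend, a replicate block, array weights and leaving out each array. Quantile and median scaling of replicate 2, and the ratio within replicates 1 and 3, were added after seeing the data.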

Additional observations from a re-analysis of the deposited data

How the results depend on the processing

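Within replicates 1 and 3 the GR1 difference kept its sign under 11 of 11 alternatives, from -1.73 (without control replicate 3) to -0.50 (without control replicate 1) when arrays were left out, and 10 of them left it short of the threshold. Of these, 4 set 1 array against 2, with the lone array assumed to vary like the other group, and say little about stability. The exception was the replicate block, with -1.11 and an adjusted p of 0.00595 in limma, where 3521 probe sets were called. The block was kept out of the main fits because the labels state no pairing. The deviations of same-numbered arrays from their group means correlated with 0.11, -0.04 and 0.29 in replicates 1, 2 and 3. Control array 1 with cadmium array 3 gave -0.36, and control array 3 with cadmium array 1 gave -0.10. These values do not settle whether the arrays were matched. The block changed no call over all 6 arrays. The sign-flip test on the ratio of GR1 to GR with the replicate block gave -0.15 (exact p = 1). Median centring turned GR to -0.0261 over all 6 arrays and to -0.0264 within replicates 1 and 3, and it moved GR in replicate 2 to -0.0254, with -0.0246 after quantile normalization. Over all 6 arrays, leaving out 1 array gave -0.87 to 0.61 for GR1, positive without control replicate 1 (0.61) or cadmium replicate 3 (0.24). For GR the range was -0.61 to 0.84, negative without cadmium replicate 1 (-0.37), control replicate 2 (-0.61) or cadmium replicate 3 (-0.28). The ratio of GR1 to GR ranged from -1.16 to 0.51, positive without control replicate 1 (0.17), cadmium replicate 1 (0.19) or cadmium replicate 3 (0.51). The cause of these changes was not tested. The count over all 6 arrays was 0 to 1 when arrays were left out and 1560 with array weights, under which GR1 was at -0.92 (adjusted p = 0.209). Within replicates 1 and 3 the count of 721 became 353 without the trend and ran from 142 to 1266 when arrays were left out, the lowest and highest being without cadmium replicate 1 and without control replicate 3 (without cadmium replicate 3 it was 146). The lowest signal of GR1 or GR was 187, above the signal floor of 62.0, so flooring could not change their differences. That floor is the 30th percentile of all signals and no measure of detection, and the part of background signal was not tested.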
